A study of Glycine soja with 14 samples.

Results

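The basic leucine zipper (bZIP) transcription factors of wild soybean, Glycine soja, were followed in leaves during 24 h in sodium bicarbonate, an alkaline salt. The members are all soybean probe sets whose single gene symbol in the array's annotation table begins with BZIP. A probe set is a group of short probes that together report 1 transcript. There are 89 such probe sets for 58 genes, of 37593 soybean probe sets and 6029 genes with a single symbol on the array. The 23 genes with several probe sets are represented by the one with the highest mean over all arrays. Of the 58 representatives, 9 have the suffix s and 1 the suffix a in their names, and these may not be specific to 1 transcript. Another 6 probe sets carry a BZIP symbol jointly with a second symbol, and these are not members.

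All plants were of line G07256, grown in dilute Hoagland's nutrient solution with 12 h of light and 12 h of dark. Untreated leaves of seedlings aged 21 days formed the 0 h group. The other 6 groups were leaves of seedlings moved into the same solution with 50 mM sodium bicarbonate at pH 8.5 for 0.5, 1, 3, 6, 12 or 24 h. Each of the 7 times had 2 arrays, biological replicates 1 and 2, and each array held the pooled leaves of 3 plants, so differences between single plants are averaged within an array. The 0 h leaves were the only untreated ones, and they are shared by all 6 comparisons. Time of day changed along with the hours of treatment, and their effects cannot be told apart. Of the treated times, 24 h alone lies a whole light and dark cycle from 0 h.

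The bZIP factors are defined by a basic region that contacts DNA and a leucine zipper through which a pair of proteins joins. Plant bZIP dimers bind sites around an ACGT core, and the combination of partners influences which genes they act on. In Arabidopsis, members of different groups take part in abscisic acid responses (the ABF and AREB factors, which SnRK2 kinases phosphorylate), in light-dependent development (HY5), in salicylic acid defence (the TGA factors) and in sugar and amino acid metabolism under energy shortage. Several soybean bZIP genes have been expressed in other plants and tested there for salt, drought or cold tolerance.

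The 14 arrays were alike in overall signal, with 66.1% to 77.2% of soybean probe sets above background. Background is the 95th percentile, on the same array, of 23350 probe sets for Phytophthora sojae and Heterodera glycines, soybean pathogens also represented there. Intensities were scaled to a common soybean median of 56.0, and the number of arrays limits the precision. The 12 leaf markers (photosynthesis and chlorophyll genes) were above background on all 14 arrays. Their summed signal was 56560 and 56613 at 0 h, 38973 and 35915 at 12 h, and 47118 to 54226 at the other times, and at 12 h 8 of the 12 fell and 1 rose. Of 11 nodule markers, NOD33 and N-26 were above background on all 14 arrays and the others on 5 or fewer. The nodule list summed to 432 and 247 at 12 h and to 176 to 309 elsewhere. Of 14 symbols in the seed storage list, SBPRP, a proline-rich protein that the name pattern also catches, was above background on 14 arrays, BBI-1 on 10, and the others on 2 or fewer, with glycinin GY1 on 0. The seed list summed to 584 and 387 at 12 h, of which SBPRP was 470 and 232, and to 3814 to 8365 elsewhere, of which SBPRP was 3649 to 8195. Among the arrays' controls, the 18S ribosomal RNA probe set was lowest at 0.5 h (63.1 and 25.6) and highest at 6 h (1696 and 2274), against 455 and 405 at 0 h. It read 136 and 126 at 1 h, 996 and 748 at 3 h, and 380 to 560 at 12 h and 24 h. The ratio of the actin 3' to the actin 5' probe set was 3.39 and 2.22 at 0 h and 1.87 to 3.29 elsewhere. The BioB control read 213 and 202 at 0.5 h, 280 on 12 h replicate 1 and 406 to 789 on the others. After scaling, background ran from 14.7 on 12 h replicate 1 to 28.4 on 1 h replicate 2. The part of these controls, of ribosomal RNA and of falling leaf markers in the bZIP results was not tested.

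Of the 58 bZIP genes, 40 were above background on all 14 arrays, 13 on some and 5 on none (BZIP9, BZIP35, BZIP44, BZIP82 and BZIP94). Between 42 and 48 of the genes were above background on any 1 array. In bulk leaves, fewer cells of a type and less RNA per cell cannot be told apart. The spread between the replicates was widest at 0 h, where the SD of the difference between both arrays over the 58 genes was 0.457 on the log2 scale, and narrowest at 6 h (0.235).

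Against 0 h, 25 calls were made for bZIP genes, at 6, 12 and 24 h, and 16 of them at 12 h. Changes are differences in log2(intensity + 16) between group means, a scale that understates the change of dim genes. They were tested with limma on all soybean probe sets, with Benjamini-Hochberg adjustment and a threshold of 0.05. At 12 h, 6 bZIP genes rose and 10 fell. They were 27.6% of the 58, where 24.4% of all soybean probe sets passed, 11.4% higher and 13.0% lower. At 6 h, 2 rose and 3 fell (8.62%), beside 10.0% of all soybean probe sets (4.16% higher, 5.84% lower). At 24 h, 4 fell and 0 rose (6.9%), beside 5.22% of all soybean probe sets (2.22% higher, 3.00% lower). Of genes with a single symbol, represented in the same way, 28.2% passed at 12 h, 12.1% at 6 h and 6.20% at 24 h. The bZIP shares lie close to those of all soybean probe sets, so the counts say nothing particular to the family. The split between higher and lower shifted with the scaling. It was 3 and 2 at 6 h, 6 and 6 at 12 h and 3 and 4 at 24 h without scaling. After quantile normalization it was 3 and 2, 7 and 9, and 2 and 4. By its representative, no bZIP gene passed the limma test at 0.5, 1 or 3 h, where 2.54%, 0% and 2.46% of all soybean probe sets did. There, 9, 6 and 9 of the 58 bZIP genes had an unadjusted p under 0.05. Of the 37593 soybean probe sets, 7672, 3713 and 7741 did (20.4%, 9.88% and 20.6%).

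**Figure D1:**
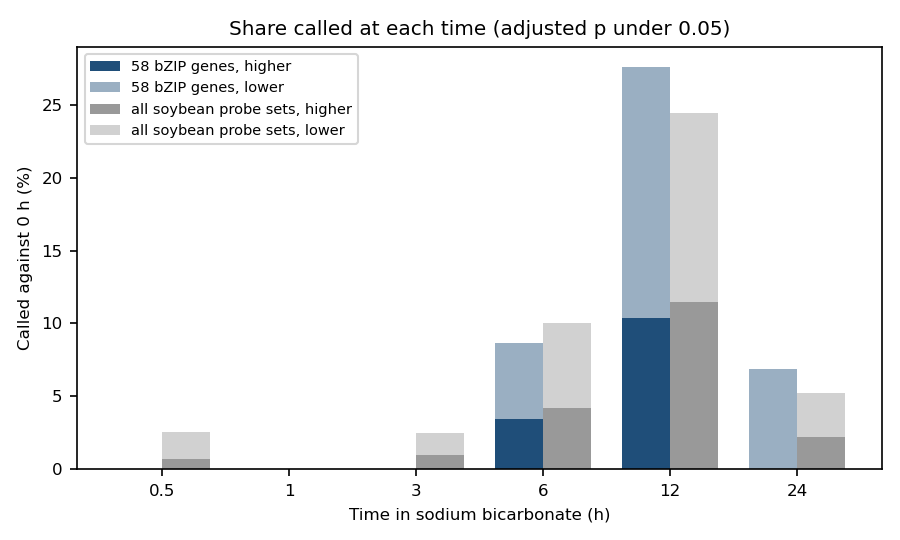
Share of the 58 bZIP genes (blue) and of all soybean probe sets (grey) that passed the test against 0 h at each time, in percent, split into higher (dark, bottom) and lower (light, top). Both reach their maximum at 12 h, at 27.6% and 24.4%, and the bZIP genes have no bar before 6 h.

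The number of calls depended on single arrays, for the bZIP genes and for all soybean probe sets. The 6 h count of 5 became 2 when 0 h replicate 1 or 6 h replicate 2 was left out. It became 3 when 6 h replicate 1 or any 1 of the arrays of 0.5 h and 24 h was left out. The 12 h count of 16 became 10 on leaving out either 0 h array, and 9 on leaving out 12 h replicate 1, where the count over all soybean probe sets went from 9175 to 5634. For 24 h, the count of 4 became 0 with replicate 1 of that time left out and 1 with replicate 2 left out. Over all soybean probe sets the 24 h count went from 1963 to 34 and 91 in the same fits. Each call against 0 h kept its direction in all of these fits. Where 1 array of a time is left, it is assumed to vary like the other groups.

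Considered over all 7 times together, 21 of the 58 genes (36.2%) passed limma's F test, where 30.4% of all soybean probe sets and 36.3% of genes with a single symbol did. With 24 h replicate 2 left out the count was 12, and with replicate 1 of that time left out it was 13. At 1 time or more, 19 genes (32.8%) passed against 0 h, with 29.9% of all soybean probe sets. At 2 or more times 4 genes passed, with 10.9% of all soybean probe sets. Counting the steps between consecutive times as well, 26 genes passed some test by their representative and 32 passed none. Of all soybean probe sets, 39.3% passed some test. The median change over the 58 genes lay between -0.08 and -0.03 at the 6 times, and the median over all soybean probe sets between -0.04 and -0.01. Changes of 1 log2 unit or more were shown by 6 bZIP genes at 12 h (10.3%). The share was 9.15% for all soybean probe sets and 12.3% for genes with a single symbol. The largest departure from 0 h came at 12 h for 9 genes that were higher and 11 that were lower.

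**Figure D2:**
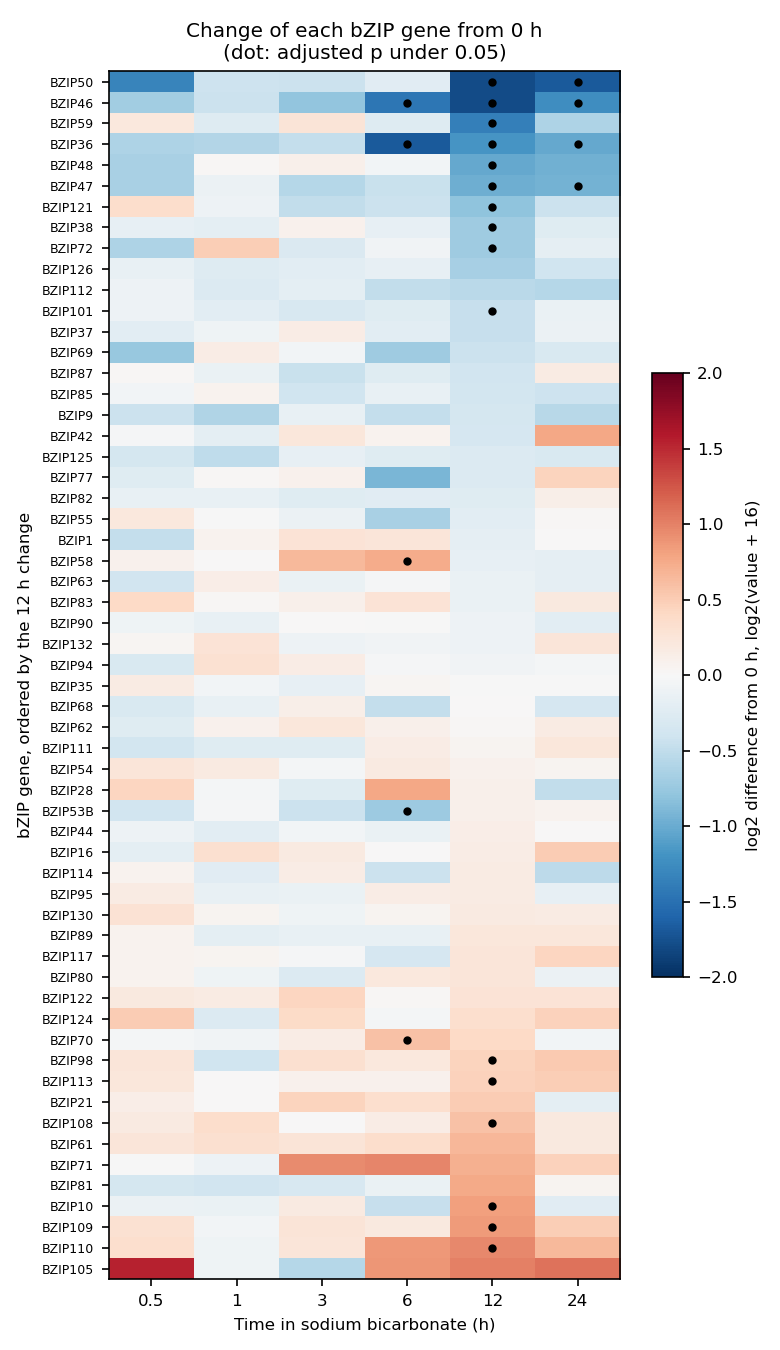
Change of each of the 58 bZIP genes from 0 h, as the difference in log2(intensity + 16), at the 6 treated times; rows are ordered by the 12 h change. Blue is lower, red is higher, and a dot marks an adjusted p under 0.05. The dots cluster at 12 h at both ends of the order, and 4 genes near the top (BZIP50, BZIP46, BZIP36 and BZIP47) keep a dot at 24 h.

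BZIP36 was lower at 6, 12 and 24 h, each time with the lowest p of the family. Its intensities were 102 and 94.3 at 0 h, 62.7 and 54.8 at 0.5 h, 59.3 and 61 at 1 h, 69.9 and 62.3 at 3 h, 20.5 and 18.7 at 6 h, 28.2 and 41.1 at 12 h and 43.3 and 37.1 at 24 h. Both 6 h arrays were below background and every treated array was below both 0 h arrays. At 6 h it was at least 4.75-fold lower than at 0 h (log2 change -1.68 ± 0.15 SE, adjusted p = 7.46e-05 by limma), and the step from 3 h to 6 h was -1.20 ± 0.15 (adjusted p = 0.00145, at least 3.2-fold). The change was -1.18 ± 0.15 at 12 h (adjusted p = 0.000294) and -1.02 ± 0.15 at 24 h (adjusted p = 0.00915). The 6 h and 12 h falls passed without any 1 array (highest adjusted p 0.00185 and 0.0033). The 24 h fall did not pass without either 24 h array (highest adjusted p 0.0831). At 1 h, where no bZIP gene passed, it had the lowest p of the family, with a change of -0.58 ± 0.15 (adjusted p = 0.302).

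A second probe set, annotated jointly to BZIP36 and STF2, followed the same course. STF2 is a soybean TGACG-motif binding factor related to HY5, which in Arabidopsis promotes development in the light. The joint probe set read 357 and 274 at 0 h, 204 and 166 at 0.5 h, 231 and 200 at 1 h, 231 and 243 at 3 h, 51.7 and 61.8 at 6 h, 135 and 135 at 12 h and 168 and 137 at 24 h. Its change was -2.18 ± 0.17 at 6 h (adjusted p = 3.17e-05) and -0.97 at 24 h (adjusted p = 0.0157). From 6 h to 12 h it rose by 1.06 (adjusted p = 0.00358). STF2's own probe set read 41.7 and 32.4 at 0 h, 34.7 and 22.3 at 0.5 h, 49.2 and 33.1 at 1 h, 36 and 28.3 at 3 h, 14.8 and 8.56 at 6 h, 21.1 and 18.3 at 12 h and 22.4 and 17.8 at 24 h. It was above background on 11 arrays but on neither of 6 h. At 6 h it was at least 1.78-fold lower (log2 change -0.94 ± 0.20, adjusted p = 0.0128). GBF2, a G-box binding factor and the other bZIP gene found under another name, did not pass against 0 h (lowest adjusted p 0.144, at 24 h). In the step from 12 h to 24 h GBF2 rose by 0.77 (adjusted p = 0.0364 by limma). The joint probe set and that of BZIP36 share a root number in their names, and are not independent measurements.

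BZIP46, BZIP47 and BZIP50 were the other genes lower at more than 1 time. BZIP46 read 143 and 79.4 at 0 h, 59.8 and 59.8 at 0.5 h, 81.9 and 69.4 at 1 h, 41.3 and 72.6 at 3 h, 31.8 and 26.7 at 6 h, 17.7 and 21.7 at 12 h and 43.6 and 29.1 at 24 h. Every treated array except 1 h replicate 1 was below both 0 h arrays, and 12 h was lowest. The change was -1.45 ± 0.26 at 6 h (adjusted p = 0.00518), -1.79 ± 0.26 at 12 h (adjusted p = 0.000622) and -1.25 ± 0.26 at 24 h (adjusted p = 0.0251). The fall at 24 h did not pass without 0 h replicate 1 or without either 24 h array (highest adjusted p 0.159), while those at 6 h and 12 h passed without any 1 array.

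BZIP47 read 137 and 93.4 at 0 h, 60.1 and 72.5 at 0.5 h, 103 and 103 at 1 h, 69.8 and 72 at 3 h, 78.5 and 79.1 at 6 h, 53.8 and 46.5 at 12 h and 60.3 and 43.5 at 24 h. The arrays of 0.5, 3, 6, 12 and 24 h were all below the 0 h ones, while the 1 h arrays lay between those of 0 h. The change was -0.97 ± 0.18 at 12 h (adjusted p = 0.00301) and -0.94 ± 0.18 at 24 h (adjusted p = 0.0206). The 24 h fall did not pass without 0 h replicate 1 or either 24 h array (highest adjusted p 0.143).

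BZIP50 read 158 and 300 at 0 h, 96.4 and 62.5 at 0.5 h, 144 and 178 at 1 h, 145 and 171 at 3 h, 189 and 181 at 6 h, 61.4 and 43.1 at 12 h and 39.2 and 81.6 at 24 h. The 0 h arrays differed widely, and those from 1 h to 6 h overlapped or lay between them, whereas the arrays of 0.5 h, 12 h and 24 h were all lower than both. The change was -1.79 ± 0.32 at 12 h (adjusted p = 0.00226) and -1.68 ± 0.32 at 24 h (adjusted p = 0.0203). The latter did not pass when 0 h replicate 2 or 24 h replicate 1 was left out (highest adjusted p 0.13). At 0.5 h its change of -1.32 ± 0.32 missed the threshold (adjusted p = 0.0545) and had the lowest p among the representatives at that time. It passed when 0 h replicate 1 or either 24 h array was left out. The drop came between 6 h and 12 h (-1.57 ± 0.32, adjusted p = 0.0117). This step did not pass without 12 h replicate 2 or either 6 h array (highest adjusted p 0.0698).

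Another 6 genes were lower at 12 h, and none of them passed at 24 h or in the step from 12 h to 24 h. BZIP59 read 520 and 314 at 0 h, 417 and 535 at 0.5 h, 460 and 247 at 1 h, 510 and 466 at 3 h, 379 and 298 at 6 h, 160 and 136 at 12 h and 245 and 273 at 24 h. Its further probe sets differed at 12 h, where 1 fell (-1.70 ± 0.29, adjusted p = 0.00192 by limma) and the other did not pass (-0.36 ± 0.22, adjusted p = 0.275). For the representative, whose name has the suffix s, both 12 h arrays were below all 12 others. The change of -1.37 ± 0.29 at 12 h (adjusted p = 0.00581) passed without any 1 array, and at 24 h it was -0.61 (adjusted p = 0.227). BZIP121 changed by -0.80 ± 0.19 (adjusted p = 0.00993), but not past the threshold when 0 h replicate 1 or 12 h replicate 2 was left out (highest 0.0686). The change of BZIP72 was -0.71 ± 0.22 (adjusted p = 0.035), and did not pass on leaving out either 0 h array or 12 h replicate 1 (highest 0.214). The change of BZIP101 was -0.46 ± 0.14 (adjusted p = 0.0302), and did not pass on leaving out any 1 of the 0 h and 12 h arrays (highest 0.101). BZIP48 (-1.03 ± 0.34, adjusted p = 0.0471) and BZIP38 (-0.71 ± 0.23, adjusted p = 0.0472) were close to the threshold. They lost the call on leaving out any 1 of 9 and 10 arrays, and the highest adjusted p was 0.324 without 0 h replicate 2 and 0.198 without 0 h replicate 1. On values without scaling BZIP38, BZIP48, BZIP72 and BZIP101 did not pass. At 24 h BZIP48 differed from 0 h by -0.97 ± 0.34 (adjusted p = 0.118), and the others named here by -0.61 to -0.13.

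**Figure D3:**
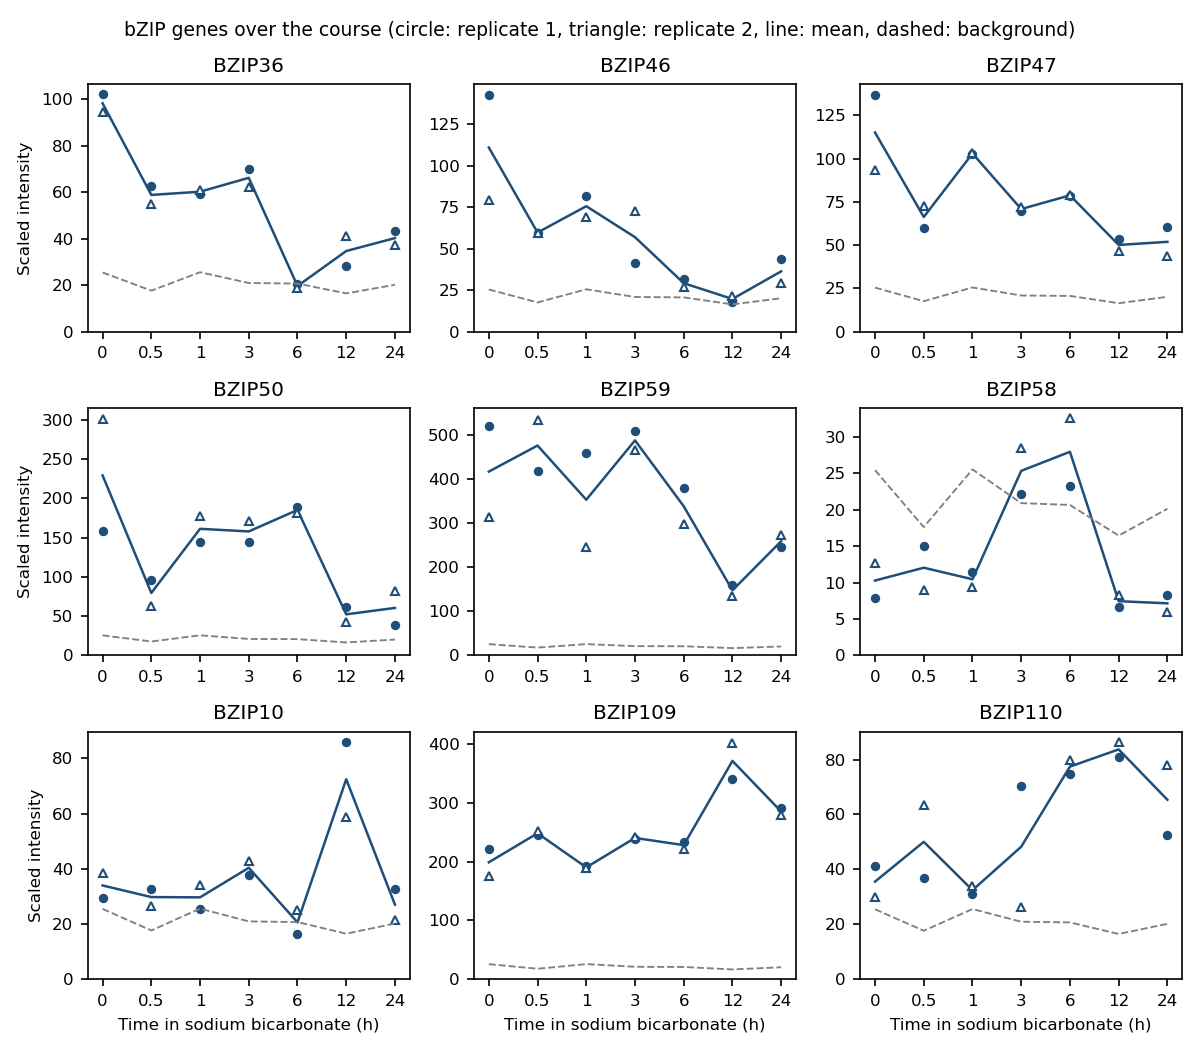
Scaled intensity (linear axis) of 9 bZIP genes at the 7 times, with replicate 1 as circles, replicate 2 as triangles, their mean as a line and the mean background as a dashed line. Times are evenly spaced on the axis and each panel has its own scale. BZIP36, BZIP46, BZIP47, BZIP50 and BZIP59 end the course lower than they began, BZIP58 is above background at 3 h and 6 h alone, and BZIP10, BZIP109 and BZIP110 have their highest mean at 12 h.

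Among the genes that rose, BZIP110 has been reported to raise salt tolerance when expressed in Arabidopsis. It read 41.1 and 29.9 at 0 h, 36.7 and 63.3 at 0.5 h, 31 and 33.8 at 1 h, 70.4 and 26.1 at 3 h, 74.9 and 80.0 at 6 h, 80.9 and 86.6 at 12 h and 52.6 and 78.1 at 24 h. The arrays of 6 h, 12 h and 24 h were above both 0 h arrays, and the 3 h arrays were far apart. At 12 h it was higher by 0.96 ± 0.30 (adjusted p = 0.0386), and at 6 h the change of 0.87 ± 0.30 did not pass (adjusted p = 0.0967). Both of its other probe sets rose at 6 h, by 1.13 ± 0.26 (adjusted p = 0.0202) and 0.73 ± 0.18 (adjusted p = 0.0278, at least 1.34-fold). At 12 h they were higher by 1.03 ± 0.26 (adjusted p = 0.0156) and 0.84 ± 0.18 (adjusted p = 0.00702, at least 1.51-fold). The 12 h rise of the representative did not pass without any 1 of the 0 h, 1 h, 6 h and 12 h arrays, and was weakest without 0 h replicate 2 (adjusted p = 0.164).

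BZIP109 read 222 and 176 at 0 h, 245 and 252 at 0.5 h, 192 and 189 at 1 h, 239 and 242 at 3 h, 234 and 222 at 6 h, 342 and 402 at 12 h and 291 and 279 at 24 h. Both 12 h arrays were above all others. The rise from 0 h was 0.86 ± 0.14 (adjusted p = 0.00153) and passed without any 1 array. BZIP108 went from 56.9 and 48.8 at 0 h to 85.5 and 88.8 at 12 h. It rose by 0.59 ± 0.13 (adjusted p = 0.00918), but the adjusted p was 0.051 when 0 h replicate 2 was left out. Probe sets of BZIP108 and BZIP109 share a root number in their names, so they may share sequence and are not independent. The same holds for 3 other pairs, BZIP37 and BZIP38, BZIP61 and BZIP62, and BZIP110 and BZIP111.

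BZIP10 passed against 0 h at 12 h and at no other time. It read 29.5 and 38.3 at 0 h, 32.8 and 26.6 at 0.5 h, 25.2 and 34 at 1 h, 37.7 and 42.9 at 3 h, 16.3 and 24.9 at 6 h, 86.1 and 58.8 at 12 h and 32.7 and 21.3 at 24 h. Both 12 h arrays were above all others, and 6 h replicate 1 was below background. The rise against 0 h was 0.81 ± 0.21 (adjusted p = 0.0153), and did not pass when replicate 1 of 0 h or of 12 h was left out (highest 0.12). The step from 6 h to 12 h was 1.27 ± 0.21 (adjusted p = 0.00373) and passed without any 1 array. The step from 12 h to 24 h was -1.04 ± 0.21 (adjusted p = 0.00599), and did not pass when 12 h replicate 1 or 24 h replicate 2 was left out (highest 0.0654).

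BZIP113 and BZIP98 rose less at 12 h. Their largest differences from 0 h came at 24 h (0.49 and 0.52), where neither passed. BZIP113 read 15.3 and 17.1 at 0 h, both below background, and 31 and 25.8 at 12 h. It was at least 1.11-fold higher (log2 change 0.46 ± 0.13, adjusted p = 0.0256), but not past the threshold on leaving out either 0 h array or 12 h replicate 1 (highest 0.139). BZIP98 was higher by 0.44 ± 0.15 (adjusted p = 0.0483), and the call was lost without any 1 of 11 arrays (highest 0.257, without 0 h replicate 2). Earlier it fell from 112 and 109 at 0.5 h to 70.7 and 59.1 at 1 h (step of -0.65 ± 0.15, adjusted p = 0.0411). It then rose to 119 and 113 at 3 h (0.71 ± 0.15, adjusted p = 0.036). Each of these steps was lost without any 1 of 10 arrays (highest 0.271 without 0.5 h replicate 2 and 0.175 without 1 h replicate 2).

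At 6 h, 3 genes passed in addition to BZIP36 and BZIP46. BZIP58 read 7.83 and 12.7 at 0 h, 15.1 and 9.0 at 0.5 h, 11.5 and 9.39 at 1 h, 22.2 and 28.5 at 3 h, 23.3 and 32.6 at 6 h, 6.60 and 8.28 at 12 h and 8.32 and 5.97 at 24 h. The 4 arrays of 3 h and 6 h were above background and the other 10 were not. It was at least 1.08-fold higher at 6 h (log2 change 0.74 ± 0.17, adjusted p = 0.0193) and at least 1.69-fold lower at 12 h than at 6 h (-0.90 ± 0.17, adjusted p = 0.00848). At 3 h its change of 0.66 ± 0.17 had the lowest p among the representatives without passing (adjusted p = 0.0669). The rise at 6 h did not pass without 0 h replicate 1 or 6 h replicate 2 (highest 0.149), nor the later step without 6 h replicate 2 or 12 h replicate 1 (highest 0.0839).

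BZIP70 went from 24.7 and 32.1 at 0 h to 49.7 and 50.6 at 6 h, a rise of 0.58 ± 0.16 (adjusted p = 0.0393). BZIP53B went from 621 and 697 to 352 and 434, a change of -0.73 ± 0.20 (adjusted p = 0.0402). The 2 groups did not overlap in either gene, but how many of all soybean probe sets separate in this way was not counted. BZIP53B rose again to 780 and 643 at 12 h (step of 0.83 ± 0.20, adjusted p = 0.0241). This step did not pass on leaving out either 6 h array or 12 h replicate 1 (highest 0.158). The 6 h calls of BZIP70 and BZIP53B were lost without any 1 of 9 and 10 arrays, and the highest adjusted p was 0.169 without 0 h replicate 1 and 0.243 without 6 h replicate 1. That of BZIP53B was also lost without scaling or after quantile normalization.

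In the steps between consecutive times, 13 bZIP genes passed at least once, where 25.0% of all soybean probe sets did. There were 2 from 0.5 h to 1 h (3.45%, beside 3.76% of all soybean probe sets) and 1 from 1 h to 3 h (1.72%, beside 2.39%). From 3 h to 6 h there were 2 (3.45%, beside 4.98%), and from 6 h to 12 h 6 (10.3%, beside 9.53%). From 12 h to 24 h there were 4 (6.90%), beside 15.1% of all soybean probe sets and 19.2% of genes with a single symbol. Of the 13 genes, 4 passed in a step and, by their representatives, at no time against 0 h: BZIP21, BZIP28, BZIP42 and BZIP87. Leaving out 1 array brought these counts down to 0, 0, 1, 1 and 1. From 6 h to 12 h, 1 gene passed with 6 h replicate 2 left out, 2 passed with replicate 1 of that time left out, and 3 with 12 h replicate 2 left out. From 12 h to 24 h, 1 gene passed with 12 h replicate 1 or 24 h replicate 2 left out, and 2 passed with 24 h replicate 1 left out.

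In the step from 12 h to 24 h BZIP42 had the lowest p among the representative probe sets. It was above background on the 24 h arrays alone, at 22.6 and 23.7, after 1.04 and 3.35 at 12 h. It was at least 1.41-fold higher than at 12 h (log2 step 1.11 ± 0.21, adjusted p = 0.00393, passing without any 1 array). Against 0 h (1.77 and 13.4) the change of 0.78 at 24 h did not pass (adjusted p = 0.0528). BZIP87 also rose in that step, by 0.56 ± 0.14 (adjusted p = 0.0215), and BZIP21 fell by 0.71 ± 0.21 (adjusted p = 0.0438). The rise was lost without 12 h replicate 1 or either 24 h array (highest 0.128), and the fall without any 1 of 7 arrays (highest 0.269, without 12 h replicate 1).

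BZIP28 read 136 and 98.5 at 3 h and 244 and 257 at 6 h, a rise of 1.02 ± 0.23 (adjusted p = 0.0283) that was lost without 3 h replicate 2 or either 6 h array (highest 0.183). BZIP72 went from 62.6 and 72.3 at 0.5 h to 162 and 166 at 1 h. This rise of 1.11 ± 0.22 (adjusted p = 0.0247) was lost without any 1 of those 4 arrays (highest 0.179). From 6 h to 12 h BZIP59 changed by -1.11 ± 0.29 (adjusted p = 0.0332), which was lost without any 1 of the 6 h, 12 h and 24 h arrays (highest 0.185). In the same step BZIP109 rose by 0.66 ± 0.14 (adjusted p = 0.0148), which was lost without either 6 h array or 12 h replicate 2 (highest 0.101).

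Of the soybean bZIP genes studied in transgenic plants, BZIP110 passed at 12 h and the others did not pass against 0 h. BZIP44 and BZIP62, which lowered abscisic acid sensitivity and raised salt and freezing tolerance in Arabidopsis, differed in detection. BZIP44 was below background on all 14 arrays, with a highest value of 13.8. BZIP62 read 71.7 and 72.4 at 0 h, 63.6 and 53.7 at 0.5 h, 80.0 and 74.6 at 1 h, 89.8 and 84.7 at 3 h, 71.5 and 85.8 at 6 h, 80.4 and 67 at 12 h and 82.3 and 83.4 at 24 h. Its 6 differences from 0 h were -0.24 to 0.23, with a lowest adjusted p of 0.354. BZIP132, studied in Arabidopsis for abscisic acid and salt responses, was above background on 2 arrays, and its lowest adjusted p against 0 h was 0.582. The symbol BZIP78, from the same work as BZIP44 and BZIP62, has no single-symbol probe set in the annotation and is not analysed here.

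BZIP1, tested for drought, salt and cold tolerance in transgenic plants, passed the F test over the course (adjusted p = 0.0408) and at no time against 0 h. It read 154 and 152 at 0 h, 111 and 100 at 0.5 h, 177 and 146 at 1 h, 206 and 170 at 3 h, 165 and 204 at 6 h, 142 and 125 at 12 h and 170 and 140 at 24 h. The 0.5 h arrays were the lowest of all 14 (change of -0.47 ± 0.16, adjusted p = 0.143) and 3 h replicate 1 was the highest. The other probe set of BZIP1 read 93.7 and 79.8 at 0 h and 116 and 105 at 0.5 h, a change of 0.31 ± 0.21 in the other direction (adjusted p = 0.444), and it did not pass the F test (adjusted p = 0.121). By their representatives, BZIP77, BZIP105, BZIP28, BZIP42 and BZIP87 likewise passed the F test with no call against 0 h. Those of BZIP38, BZIP48, BZIP101 and BZIP110 passed against 0 h and not the F test.

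BZIP105 and BZIP71 had large mean changes that did not pass. BZIP105 read 88.3 and 146 at 0 h, 219 and 588 at 0.5 h, 74 and 149 at 1 h, 85.6 and 60.3 at 3 h, 233 and 216 at 6 h, 302 and 199 at 12 h and 280 and 243 at 24 h. Its 0.5 h arrays were both above the 0 h ones but 588 of replicate 2 was far from 219 of replicate 1, and the change of 1.53 ± 0.42 did not pass (adjusted p = 0.0786). From 6 h to 24 h all 6 arrays were above both 0 h arrays, with changes of 0.89, 1.01 and 1.09 (adjusted p = 0.215, 0.101 and 0.146). A second probe set of BZIP105 rose at 12 h by 1.64 ± 0.50 (adjusted p = 0.0356), from 30.8 and 99.7 to 245 and 186, and the remaining one read 33.8 and 38 at 0 h and 28.1 and 28 at 12 h.

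BZIP71 is among 8 genes for which another probe set passed a test that the representative did not. The representative read 508 and 215 at 0 h, 357 and 300 at 0.5 h, 429 and 222 at 1 h, 735 and 577 at 3 h, 769 and 580 at 6 h, 924 and 332 at 12 h and 516 and 411 at 24 h. Replicate 1 was above replicate 2 at each time. Its changes at 3, 6 and 12 h were 0.94, 0.98 and 0.72 with an SE of 0.47, and none passed (lowest adjusted p 0.232). The other probe set read 193 and 100 at 0 h, 166 and 145 at 0.5 h, 183 and 115 at 1 h, 488 and 406 at 3 h, 387 and 319 at 6 h, 493 and 228 at 12 h and 322 and 270 at 24 h. It rose at 3 h by 1.57 ± 0.35 (adjusted p = 0.0436), at 6 h by 1.24 (adjusted p = 0.0458) and at 12 h by 1.18 (adjusted p = 0.0301), and all 6 of those arrays were above both 0 h arrays.

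Of the 25 calls against 0 h, 10 were of genes with further probe sets, which gave 13 comparisons. In all 13 the other probe set moved the same way as the representative, and in 6 it passed as well. Of those that passed, that of BZIP10 was above background on 1 array, that of BZIP108 on 5 and the rest on 8 to 14. Some of the others were also dim, and that of BZIP70 hardly moved (0.08 ± 0.20, adjusted p = 0.847, above background on 2 arrays). BZIP59 showed how far they can differ. At 12 h 1 further probe set went from 137 and 59.4 to 21.9 and 13 (-1.70 ± 0.29, adjusted p = 0.00192). The other went from 227 and 170 to 163 and 137 and did not pass (-0.36 ± 0.22, adjusted p = 0.275). The second probe set of BZIP50 changed by -1.04 ± 0.37 at 12 h (adjusted p = 0.0632) and -1.21 ± 0.37 at 24 h (adjusted p = 0.0812). The 31 probe sets that are not representatives had 24 calls, 16 of them where the representative did not pass. Those 16 belong to BZIP28, BZIP71, BZIP80, BZIP90, BZIP105, BZIP108, BZIP110 and BZIP114. In 2 of the 24, of BZIP80 and BZIP108, the representative differed in sign. With every probe set counted, 28.1% of the 89 passed at 12 h, 10.1% at 6 h and 5.62% at 24 h. The shares of all soybean probe sets were 24.4%, 10.0% and 5.22%. A further probe set of BZIP114 rose at 12 h by 0.65 ± 0.20 (adjusted p = 0.035) and fell from 12 h to 24 h by 1.11 ± 0.20 (adjusted p = 0.00313). Another of its probe sets rose from 6 h to 12 h by 0.93 ± 0.24 (adjusted p = 0.0347). The second probe set of BZIP28 was lower at 24 h (-0.72 ± 0.18, adjusted p = 0.0443) and in the step from 12 h (-0.73 ± 0.18, adjusted p = 0.018). Those of BZIP80, which rose from 12 h to 24 h (adjusted p = 0.0432), and of BZIP90, which passed at 6 h (adjusted p = 0.0196), were below background on all 14 arrays. A further probe set of BZIP108 rose at 0.5 h by 0.76 ± 0.15 (adjusted p = 0.03, at least 1.07-fold). From 0.5 h to 1 h it changed by -0.72 ± 0.15 (adjusted p = 0.0346 by limma). The representative of BZIP108 went from 62.9 and 61.3 to 72.0 and 71.1 in that step. Of the jointly annotated probe sets other than that of BZIP36 and STF2, the one for SBZ1 and BZIP89 rose at 12 h by 0.64 (adjusted p = 0.0417) and the other 4 did not pass at any time.

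**Figure D4:**
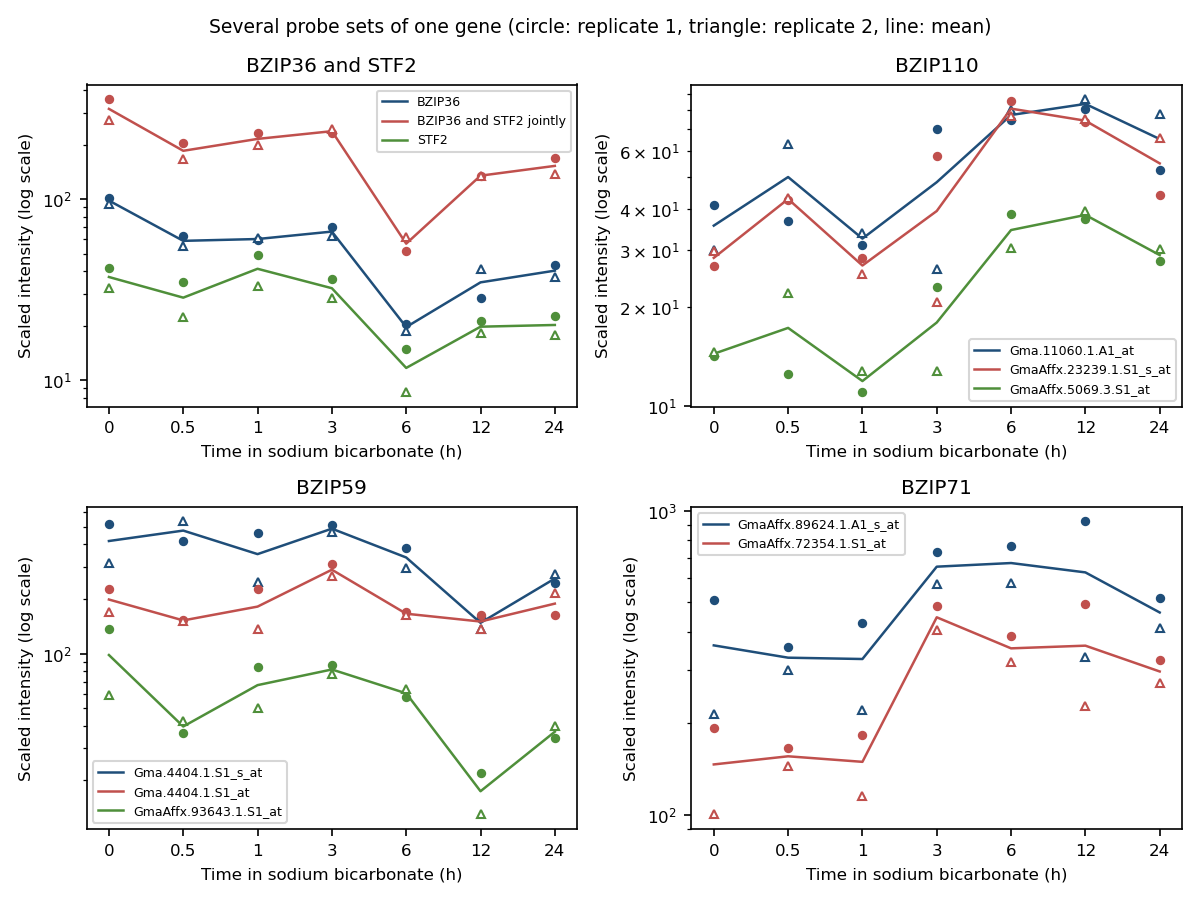
Scaled intensity (log axis) of the several probe sets of BZIP110, BZIP59 and BZIP71, and of BZIP36, STF2 and the probe set annotated to both, at the 7 times. Circles are replicate 1, triangles replicate 2 and lines their mean; levels cannot be compared between probe sets. The 3 lines of the BZIP36 panel have their lowest mean at 6 h, the 3 of BZIP110 rise after 1 h, and 1 of the 3 lines of BZIP59 has no deep minimum at 12 h.

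The abscisic acid and dehydration list, chosen by symbol and made of 38 genes, was read beside the bZIP genes because SnRK2 kinases and abscisic acid act on the ABF group in Arabidopsis. At 12 h, 4 of its genes rose and 2 fell (15.8%, with 24.4% of all soybean probe sets). At 6 h 2 rose and 1 fell (7.89%, with 10.0% of all soybean probe sets), and at 3 h 1 fell (2.63%, with 2.46%). At 0.5, 1 and 24 h none passed the limma test, where 2.54%, 0% and 5.22% of all soybean probe sets did. There, 2, 4 and 12 of the 38 had an unadjusted p under 0.05, beside 7672, 3713 and 8619 of the 37593 soybean probe sets. At 12 h the SnRK2-type kinases SPK-2 and SPK-4 were higher by 1.26 and 0.76 (adjusted p = 0.00165 and 0.00179), while SPK-1 (0.44, adjusted p = 0.369) and SPK-3 (-0.41, adjusted p = 0.0823) did not pass. ERD15, an early dehydration gene, was higher by 2.74 (adjusted p = 0.00763), while zeaxanthin epoxidase ZEP, of abscisic acid synthesis, changed by -1.36 (adjusted p = 0.00197). The lowest p of the list at 12 h was that of the seed maturation gene PM23 (-2.43 ± 0.16, adjusted p = 3.59e-06), which was also the gene that fell at 3 h (-0.78) and 6 h (-1.76). The list holds 22 seed maturation (PM) genes, 9 of which were below background on all 14 arrays. By the F test 10 of the 38 passed (26.3%), beside 36.2% of the bZIP genes, 14 of 52 WRKY, 7 of 15 NAC and 34 of 65 MYB genes.

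The 32 bZIP genes whose representative passed no test include the 5 below background throughout. Further probe sets of BZIP71, BZIP80, BZIP90 and BZIP114, also among the 32, passed some test. Apart from BZIP71, the largest difference of these representatives from 0 h was 0.75 in size, for BZIP81 at 12 h and BZIP69 at 0.5 h. BZIP81 read 30.7 and 27.4 at 0 h and 49.7 and 71.4 at 12 h (0.75 ± 0.28, adjusted p = 0.0751), and BZIP69 read 217 and 192 at 0 h and 147 and 89.1 at 0.5 h (-0.75 ± 0.25, adjusted p = 0.137). With 2 arrays per time and a median SE of 0.203 for a bZIP change, these differences did not pass. Missing the threshold does not show that these genes kept their level.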

How the data were processed

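The deposited table gives 1 intensity per probe set and array (1-colour Affymetrix soybean array, biotin-labelled RNA extracted with TRIzol, per the labels' protocols), on a linear scale from 0.92 to 12812.33. How the authors normalized and summarised these intensity values is unstated in the sources used here. All 14 samples were grouped by their labels.

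Intensities were brought to 1 soybean median on every array (56.0), and log2(intensity + 16) was fitted with 7 group means over all 37593 soybean probe sets (limma 3.58.1, R 4.3.3, lmFit and eBayes, 7 residual and 4.25 prior degrees of freedom; SE pooled over times). The contrasts were 6 times against 0 h, 5 consecutive steps and the F test. Tests were two-sided, p-values were adjusted by Benjamini-Hochberg within each contrast, and the 227 control probe sets were left out. The fit was tested on simulated data. Where no array of 1 group was above background, a fold is given as at least the bright group's mean over the dim group's mean, taking for each dim array the higher of its background and its own signal.

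Gene names are those of the array's public annotation table. Sequences and genome positions are not analysed here. Members, lists and tests were chosen with earlier results of these data known. Named genes are those past any test, and BZIP44, BZIP62, BZIP78, BZIP132, BZIP1 and BZIP110. All arrays are given for genes called at 2 or more times and for the 2 lowest p at each time with calls. They are also given for the lowest p at other times, and for BZIP62, BZIP1 and BZIP110. Values by array were left out for BZIP44 and BZIP132, and BZIP78 has no single-symbol probe set. BZIP10, BZIP59, BZIP69, BZIP71, BZIP81, BZIP105 and BZIP109 were given values by array after their values were seen. Further probe sets (BZIP80, BZIP90 and BZIP114 included) and the members of the abscisic acid list were also named after their values were seen. Alternatives were quantile normalization, no scaling, other pseudocounts, a filter on dim probe sets, the replicate number as a block, other variance settings, fewer arrays, a stricter threshold and every probe set counted.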

Additional observations from a re-analysis of the deposited data

How the results depend on the processing

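None of the 43 results for single genes that were run under the alternatives changed direction. Values of other genes and of further probe sets were not rerun. Over 444 pairs of such a result with an alternative, 364 kept direction and side of the threshold, 79 lost the call and 1 gained it. At 0.5 h against 0 h, where 0 bZIP genes passed, 2 did with log2(value + 64), 1 with the filter on dim probe sets, 1 without the 12 h arrays, and 1 with every probe set counted, as also at 3 h. The 6 h count of 5 became 3 with only the groups compared or without the 0.5 h arrays, 2 at adjusted p under 0.01 and 9 with every probe set. The 12 h count of 16 became 6, 8 and 25 with only the groups compared, at 0.01 and with every probe set, and the 24 h count of 4 became 0, 1 and 5; without scaling it was 7. From 0.5 h to 1 h the count of 2 became 0 with log2(value + 1), 1 with only the groups compared and 0 at 0.01. From 1 h to 3 h the count of 1 became 0 with log2(value + 1), with only the groups compared, without the 0.5 h arrays and at 0.01, and 2 with every probe set. From 3 h to 6 h the count of 2 was 1 with log2(value + 1) and at 0.01; from 6 h to 12 h 6 became 2 at 0.01; from 12 h to 24 h 4 became 7 with log2(value + 64), 2 at 0.01 and 8 with every probe set. The F test count of 21 became 13 without the 12 h arrays, 7 at 0.01 and 32 with every probe set. Leaving out 1 array gave 0 to 1 at 0.5 h, 0 to 0 at 1 h and 3 h, 2 to 7 at 6 h, 9 to 16 at 12 h, 0 to 5 at 24 h, 0 to 3, 0 to 1, 1 to 3, 1 to 8 and 1 to 5 in the 5 steps, and 12 to 22 in the F test.

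With the replicate number as a block, 6, 14 and 4 bZIP genes passed at 6, 12 and 24 h and 20 in the F test. Over 21 pairs of times, the correlation of the deviations of arrays with the same number ran from -0.219 to 0.226. The median was -0.0526, and 4 were above 0.1. Over all soybean probe sets there was thus no consistent shared deviation, and the numbers were not taken as pairs. This check does not cover single genes, and BZIP71 had replicate 1 above replicate 2 at each time. With 2 arrays per time and a pooled spread, small changes and dim genes (13 genes above background on some arrays and 5 on none) are the least certain. A value near background bounds a fold and does not measure it.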
